A study of Mus musculus with 7 samples.

Results

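Stomach-type tissue grown from mouse embryonic stem (ES) cells was set against tissues taken from mice, to find genes whose signal in both cultures lay outside the range of every tissue. All 7 arrays of the series entered this comparison, 2 from cultures and 5 from tissues, with 1 array per group. The day 42 culture had grown for 42 days in DMEM/F12 with N2 and B27 supplements and human recombinant EGF at 50 ng/mL, together with FGF10, Wnt3a and the BMP inhibitor Noggin at 100 ng/mL each and the Wnt enhancer R-spondin1 at 250 ng/mL. The day 46 culture followed those 42 days with 4 days in which, per the labels, the same base medium with EGF at 50 ng/mL held the signalling proteins Shh at 100 ng/mL and Bmp4 at 10 ng/mL as the alternative to the earlier set of factors. The tissues were 4 organs of adult ICR mice (esophagus, lung, stomach and intestine) and the stomach of embryos at day 9.5 (E9.5). The labels name neither the ES cell line nor the number of animals or cultures behind each RNA, and they give 2 RNA extraction kits without saying which sample had which.

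Each value is the log2 of a gene's background-corrected signal minus the 75th percentile of its array, so 0 is the level of a probe brighter than 75% of that array. A gene was called culture-only where the lower of the 2 cultures exceeded the highest of the 5 tissues by at least 2 log2 units (4-fold). It was called culture-lost where the lowest tissue exceeded the higher culture by the same amount. This margin is called the gap below, and the terms refer to its size, not to presence or absence of a transcript. With 1 array per group there is no replicate check, and no test, standard error or p-value is given. In bulk RNA, fewer cells of a type and less RNA per cell cannot be told apart.

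As background, an organ taken from an animal holds epithelium, connective tissue, muscle, nerves, vessels lined by endothelium, and blood, and tissue grown in a dish has no circulation. Plasma proteins such as albumin and fibrinogen are made by liver hepatocytes and, before the liver forms, by yolk sac endoderm, which like the gut lining belongs to the endodermal lineage. Cells sense low oxygen through prolyl hydroxylases that mark hypoxia-inducible factor (HIF) for degradation. When HIF is stable it binds a short DNA core near its target genes, many of which serve glycolysis and collagen maturation.

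The share of probes well above background was 66.1% and 82.7% on the day 42 and day 46 arrays and between 68.3% and 75.4% on the tissue arrays. The lowest reliable signal lay highest on the lung array (-5.18), and that array set the margin in all 13 culture-only genes whose gap is a lower bound. The scanner files of the cultures came from a later version of the feature extraction software than those of the tissues, so software version and culture against tissue cannot be told apart. The 4 adult organs shared 1 slide and 1 scan, and each of the other 3 arrays had a slide and a scan of its own. Spike-in control probes had a median log2 signal of 7.85 on the day 46 array against 10.48 to 12.04 on the others. The defining markers of each adult organ were highest on the array of that organ. The esophagus array also carried lung markers, with Sftpc at 5.12 and Scgb1a1 at 5.44, and the adult stomach array carried the squamous keratins Krt4 and Krt5 at 4.56 and 6.31. In the cultures the stomach-type genes Tff1 (4.36 and 6.19) and Gkn2 (0.84 and 7.23) were well above background. Other gastric markers were above background but lower: Sox2 read -3.025 and -1.64, Muc5ac -3.32 and 0.28, and Cldn18 -3.42 and -2.85. Gata4 read -4.64 and -3.45 and Pdx1 -2.99 and -2.68. Tff2 fell from 3.12 at day 42 to -4.415 at day 46, and Foxa2 read 2.83 and 2.37. Shh was below background on both culture arrays. The stomach mesenchyme regulator Barx1 stood at -5.60 and -5.78, below background at day 42.

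Of 17047 named genes, 16855 had a value on all 7 arrays. Among the 13220 that were above background in both cultures and could therefore pass, 126 were culture-only, which is 0.953%. Among the 12203 that were above background in all 5 tissues, 63 were culture-lost, which is 0.516%. Over all genes that could pass, the median gap was -1.37 for the first direction and -1.25 for the second. A gap above 0 was found for 12.1% and 10.2% of them. The culture-only gap reached at least 3 log2 units for 56 genes and 4 for 25, and the culture-lost gap did so for 15 and 7. Of the culture-only genes, 66 were above background on all 7 arrays and 6 were below background in all 5 tissues. Of the culture-lost genes, 42 were above background on every array and 4 were below it in both cultures. The margin rested on a bound for 13 culture-only and 15 culture-lost genes, where the array that set it was not well above background. Just inside the culture-only threshold lay Tgds (2.001) and Mab21l3 (2.005), which both lost the call with normexp among other settings, and just outside lay Rbms2 (1.994) and Phyhd1 (1.983). For culture-lost genes the nearest were H4c1 (2.002) and H4c14 (2.012) inside, and Mob1b (1.982) and Hoxa4 (1.959) outside. The counts depend on single arrays: without the day 46 array there were 205 culture-only and 119 culture-lost genes, without the intestine array 102 culture-lost, without the E9.5 stomach array 156, and without the day 42 array a number between 102 and 119. Culture-only genes made up 66.7% of all calls, against 76.7% with quantile normalization, 76.5% with median centring and 79.1% with another background correction (normexp).

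**Figure D1:**
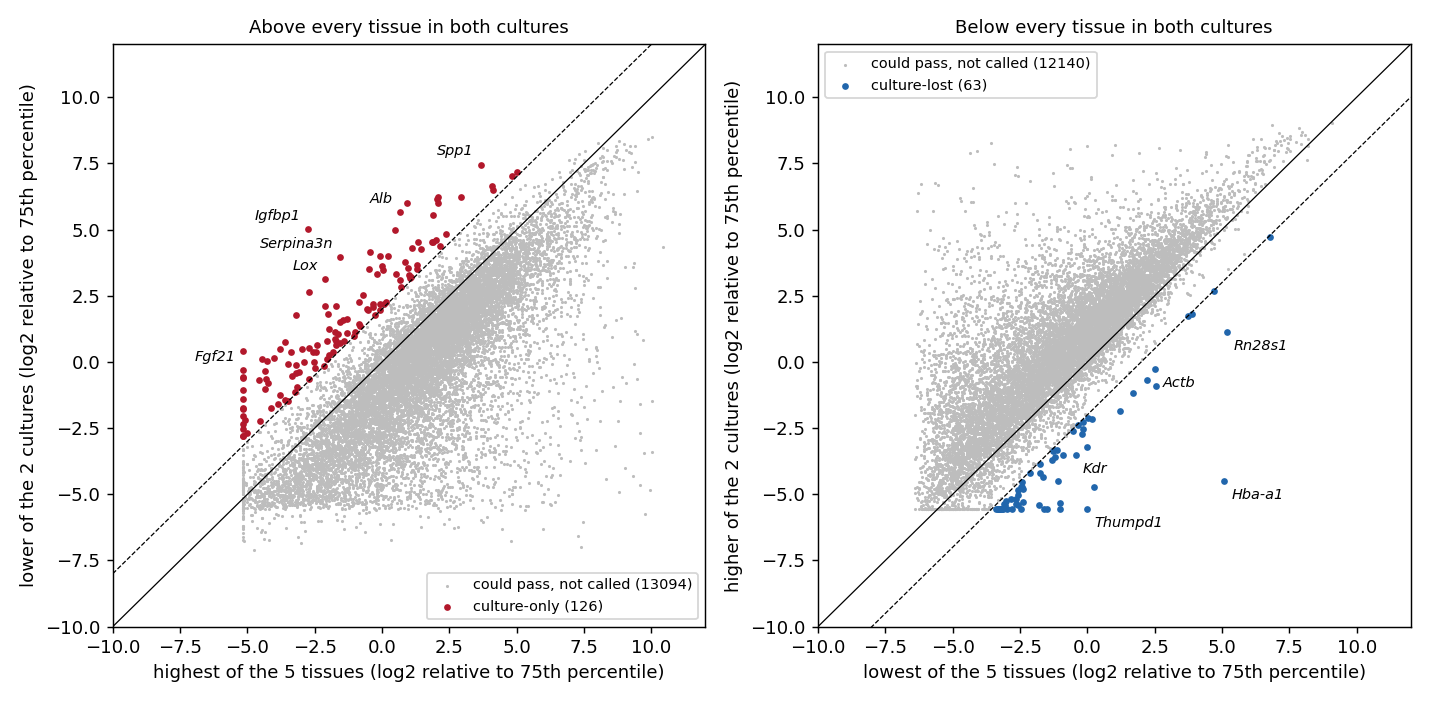
Left, the lower culture against the highest tissue for genes above background in both cultures, and right, the higher culture against the lowest tissue for genes above background in all tissues, in log2 units relative to each array's 75th percentile, with a solid line at equality and a dashed line at a gap of 2. The 126 and 63 coloured genes lie beyond the dashed lines, with Igfbp1 (gap 7.79) and Hba-a1 (9.58) farthest out.

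Plasma proteins and other hepatocyte genes gave the most culture-only calls of the 37 gene lists: 10 of the 38 members that could pass, with 22 of the 38 above every tissue and a median gap of 0.65. Igfbp1, a secreted carrier of insulin-like growth factors made by liver and decidua, had the widest culture-only gap. It read 5.03 at day 42 and 5.50 at day 46, against -8.18 in esophagus, -7.37 in lung, -7.75 in adult stomach, -4.55 in intestine and -2.75 in E9.5 stomach. The lower culture stood 7.79 log2 units (221-fold) above the nearest tissue, the embryonic stomach, and all adult organs but intestine were below background. Alb, encoding albumin, read 5.67 and 6.08 in the cultures, 0.67 in esophagus, -2.41 in lung, -2.37 in adult stomach, 0.41 in intestine and -7.38 in E9.5 stomach, where it was below background. Ahsg, encoding the plasma glycoprotein fetuin-A, read 6.72 and 6.02 against 0.46, -2.04, -0.64, 0.94 and -6.16 in the tissues, taken in the same order. No tissue came within 32.0-fold of the cultures for Alb or within 33.9-fold for Ahsg.

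All 3 chains of fibrinogen, the clot-forming plasma protein, were culture-only, and their genes lie close together on chromosome 3. Fgb stood at 5.71 and 5.00 in the cultures and at most at 0.49 in a tissue, the intestine. Fgg stood at 5.00 and 4.00 with the intestine again nearest at 0.23, and Fga at 0.37 and 0.13 with the intestine at -4.44. Kng1, which encodes kininogen and lies near Ahsg on chromosome 16, read 2.89 and 1.83 against -2.001 in intestine, a gap of 3.83, and its other probe gave 4.42. F2 (prothrombin) and Apoh were also culture-only with gaps of 3.81 and 2.61. Itih3, an inter-alpha-trypsin inhibitor chain, was called at 2.25 although it dropped by 2.43 between day 42 and day 46, and lost the call with normexp.

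For other hepatocyte genes on the list a tissue came close to or exceeded the cultures. Afp, the fetal counterpart of albumin, read 2.45 and 2.34 in the cultures and 1.43 in intestine. Apoa1, Apob and Apoc3, apolipoproteins made by liver and intestine, were highest in intestine at 8.28, 5.93 and 7.97, and Hp (haptoglobin) was highest in lung at 6.60. Ttr, the thyroxine carrier that yolk sac and liver secrete in abundance, was low in the cultures at -2.48 and -3.91. Without the intestine array the list gave 16 culture-only genes instead of 10, the additions being Afp, Ambp, Apoa2, Apoc3, Hpx and Rbp4, and among genes above background on all 7 arrays it gave 3. Of the 21 measured genes of yolk sac and visceral endoderm, which make many of the same plasma proteins, 20 could pass and 1 was called, the X-linked homeobox gene Rhox5 (1.05 and 1.71, against -1.64 in E9.5 stomach as the nearest tissue). Amn and Cubn, the subunits of the endodermal uptake receptor, were at most -4.79 and -3.03 in the cultures.

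Genes of low oxygen and glycolysis gave 7 culture-only calls of 30 members that could pass, with 18 above every tissue and a median gap of 0.31. The widest gaps belonged to P4ha2 and P4ha1, the catalytic subunits of collagen prolyl 4-hydroxylase. P4ha2 read 6.17 and 6.21 in the cultures, 1.49 in esophagus, 1.75 in lung, 2.02 in adult stomach, -0.10 in intestine and 0.25 in E9.5 stomach. P4ha1 read 3.90 and 3.64 against -0.36, -0.02, -1.65, -1.93 and -0.26. In both genes the 2 cultures lay within 0.27 log2 units of each other and the 5 tissues within 2.13, and the groups were 17.7-fold and 12.6-fold apart. Ero1a, an oxidase of the endoplasmic reticulum, read 4.52 and 4.60 with the stomach nearest at 1.35, and its other probe gave a gap of 3.53. Ankrd37 (4.74 and 4.60, nearest 1.995 in intestine), Ndrg1 (6.90 and 6.63, nearest 4.09 in intestine) and Egln3 (5.06 and 4.82, nearest 2.39 in esophagus) followed. Egln3 is itself one of the oxygen-sensing prolyl hydroxylases and a HIF target. Adm, the vessel-dilating peptide adrenomedullin, was called at 2.16 and fell short of the threshold under quantile normalization.

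Glycolytic enzymes were divided. Eno2, an enolase that was on no list and was picked after its values were seen, was culture-only (1.15 and 1.24, nearest -1.003 in esophagus), and its other probe gave a gap of 2.04. Aldoa, Gapdh, Ldha and Eno1 were all higher in at least 1 tissue than in the lower culture, Aldoa reaching 9.86 in esophagus against 8.94 and 8.42 in the cultures. Slc2a1, the glucose transporter of the list with the widest gap, read 6.10 and 5.96 in the cultures and 4.57 in E9.5 stomach, a gap of 1.39. Vegfa, the endothelial growth factor induced by low oxygen, read 4.79 and 5.43 in the cultures and 5.12 in lung. Leaving out the E9.5 stomach array added Pfkl, Slc2a1 and Slc2a3 to the 7 calls, and leaving out the esophagus array added Bnip3, Car12 and Hk2. The 2 cultures were within 0.27 log2 units of each other for all 7 called genes.

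Promoter sequence is shown for the called hypoxia genes because a short core, ACGTG, is the heart of the element that HIF binds. RefSeq promoters (build GRCm38.p6) were held for 6 of the 7 genes, and 5 of those 6 promoters carried the core on either strand within 250 bases upstream of the start site. It was present in 16.6% of all 32851 promoters of that length, in 24.0% of the 104 promoters of culture-only genes and in 10.2% of the 59 of culture-lost genes. Over all called genes, 94 of the 126 culture-only genes and 50 of the 63 culture-lost genes had a promoter in the table. The windows below read 5′ to 3′ on the strand of the gene and stop short of the full 250 bases, with the core or its reverse complement in capitals. A match describes letters and does not show binding. The core was not counted in list members that were not called, so called and uncalled members of the list cannot be compared. They lie at chr10:59323245-59323295 (plus strand) for P4ha1, chr11:54100811-54100885 (plus) for P4ha2, chr8:45999851-45999891 (minus) for Ankrd37, chr12:54204064-54204124 (minus) for Egln3 and chr14:45318596-45318670 (minus) for Ero1a.
P4ha1: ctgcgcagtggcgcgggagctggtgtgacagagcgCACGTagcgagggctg
P4ha2: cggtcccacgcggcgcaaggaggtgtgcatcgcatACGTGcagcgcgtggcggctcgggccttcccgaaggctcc
Ankrd37: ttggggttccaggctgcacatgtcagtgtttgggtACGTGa
Egln3: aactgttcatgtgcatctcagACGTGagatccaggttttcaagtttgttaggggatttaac
Ero1a: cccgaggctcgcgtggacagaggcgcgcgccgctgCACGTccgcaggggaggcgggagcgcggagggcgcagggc

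The core ended 1 base before the annotated start in Ankrd37, 11 in P4ha1, 58 in Ero1a, 73 in P4ha2 and 224 in Egln3. For the plasma proteins, the site of the hepatocyte regulator HNF1, a near-palindrome, was looked for in the same 250 bases on either strand. The search used 1 string of letters, fixed but for 1 open base. That string was found in 1 of 9 promoters, that of Igfbp1, and in 0.371% of all promoters. A site that differs from the string at any fixed base was not counted. Whether the promoters without a match, such as those of Alb and Fgb, hold a variant of the site was therefore not tested. The Igfbp1 window, shown because this gene had the widest gap, lies at chr11:7197692-7197771 on the plus strand, with the site in capitals on the opposite strand.
Igfbp1: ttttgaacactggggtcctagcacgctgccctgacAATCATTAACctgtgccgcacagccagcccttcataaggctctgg

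**Figure D2:**
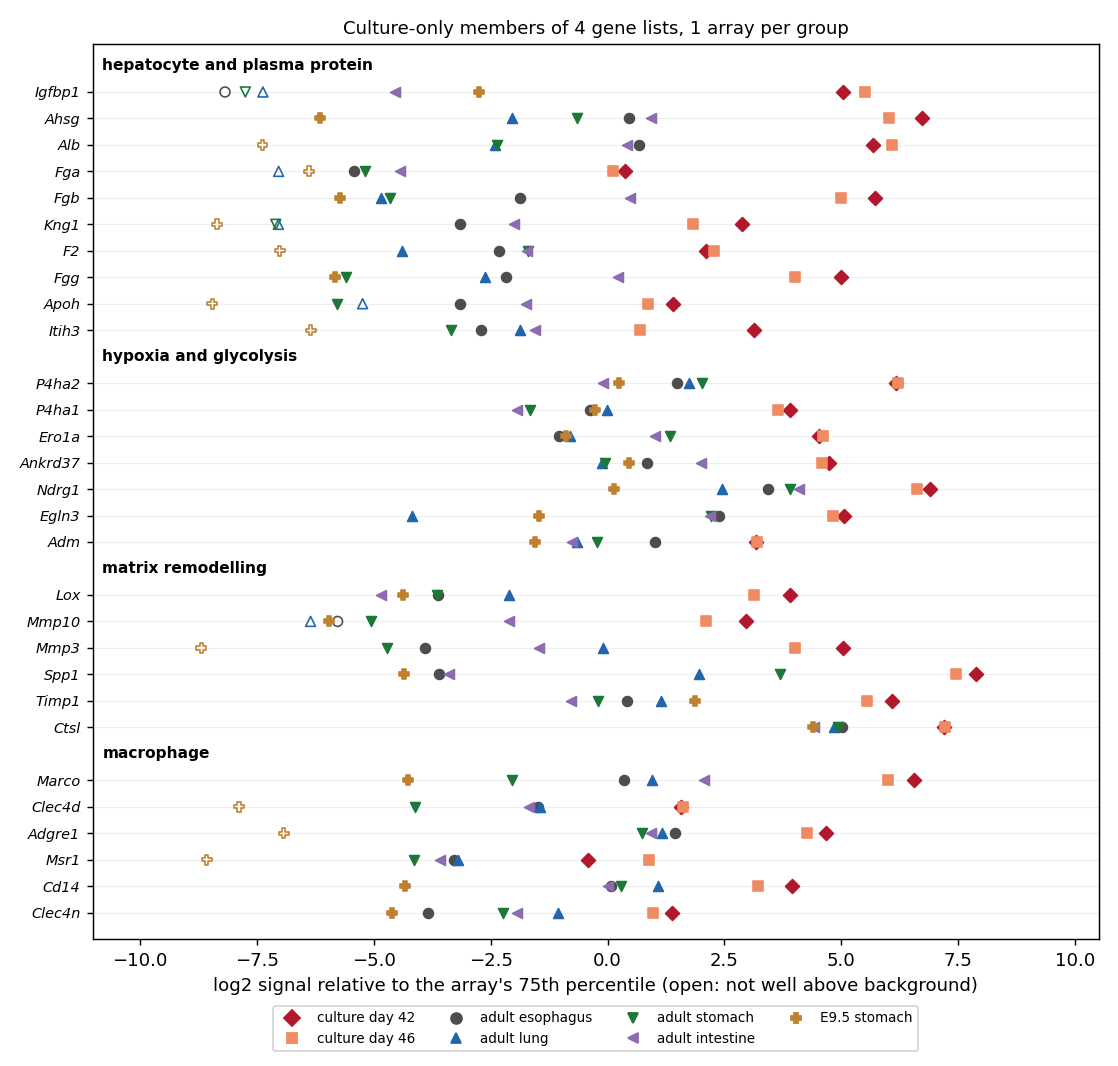
Level of culture-only genes of 4 lists on the 7 arrays, in log2 units relative to the array's 75th percentile, 1 point per array, open where not well above background. The cultures lie to the right of every tissue in each line by at least 2 units, and the nearest tissue differs from gene to gene, for example E9.5 stomach for Igfbp1 and adult stomach for Spp1.

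Genes that build and cut extracellular matrix gave 7 culture-only calls of 27 that could pass, with 18 above every tissue and a median gap of 0.62. Lox, the enzyme that crosslinks collagen and elastin, read 3.90 and 3.13 in the cultures and -3.62 in esophagus, -2.11 in lung, -3.65 in adult stomach, -4.85 in intestine and -4.38 in E9.5 stomach. Its 5.24 gap (37.7-fold) was the widest among culture-only genes above background on every array. Timp1, an inhibitor of matrix metalloproteinases, read 6.09 and 5.55 and at most 1.88, in E9.5 stomach, and its other probe gave a gap of 3.74.

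The stromelysins Mmp3 and Mmp10, which degrade matrix proteins, were both culture-only and lie close together on chromosome 9. Mmp3 read 5.03 and 4.02 against -3.91 in esophagus, -0.09 in lung, -4.72 in adult stomach, -1.46 in intestine and -8.69 in E9.5 stomach. Mmp10 read 2.95 and 2.10 and came nearest to intestine at -2.11. Mmp7 (matrilysin), from the same stretch of chromosome but on no list, read 6.21 at day 42 and 3.32 at day 46 against -0.17 in intestine. Spp1 (osteopontin) read 7.88 and 7.46, with adult stomach at 3.68 and lung at 1.96, and the lysosomal protease Ctsl read 7.19 and 7.21 with all tissues between 4.40 and 5.01, though its call ended under quantile normalization. Mmp2 and Fn1 missed the threshold at 1.93 and 1.76, whereas Timp2 and Timp3 were below the lung array by 2.04 and 2.82. Without the day 42 array the list gave 11 calls, with Fn1, Mmp12, Mmp14 and Plat added.

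The site of AP-1, the Fos and Jun factor known to act on stromelysin genes, was searched as TGANTCA, which is its own reverse complement apart from the open base. It was present upstream of both stromelysins, in 2 of 6 promoters of called matrix genes, and in 6.75% of all promoters. The 2 windows are shown because both genes carry it, ending 39 and 56 bases before the start, at chr9:7445741-7445817 and chr9:7502244-7502320 on the plus strand.
Mmp3: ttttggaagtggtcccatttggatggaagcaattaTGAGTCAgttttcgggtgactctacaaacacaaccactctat
Mmp10: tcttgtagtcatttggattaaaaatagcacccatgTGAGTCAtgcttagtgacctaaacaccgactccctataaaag

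Collagen genes themselves gave 1 culture-only call of 17 that could pass. Of the 17, 7 lay above every tissue, and the median gap was -0.06 against -1.37 over all genes. Col1a1 read 7.03 and 7.21 against 4.81 in esophagus as the nearest tissue, a gap of 2.22. Its 3 probes disagreed, since 1 other probe gave 2.43 and the last gave -0.68, and the mean over probes ended the call. Col1a2, the partner chain, had a gap of 0.55 and Col3a1 0.42. Among the enzymes that modify collagen in the endoplasmic reticulum, beside P4ha1 and P4ha2, the lysyl hydroxylases Plod2 (3.31 and 3.30, nearest 1.00 in lung) and Plod1 (1.83 and 1.35, nearest -0.83 in E9.5 stomach) were culture-only, as was the prolyl 3-hydroxylase P3h1 (0.63 and 0.71, nearest -1.72). Plod1, Plod2 and P3h1 were on no list and were picked after their values were seen, and Plod1 and P3h1 lost the call with median centring.

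Macrophage genes gave 6 culture-only calls of 23, with 11 above every tissue and a median gap of -0.11, so the list was split. Marco, a scavenger receptor for bacteria and particles, read 6.56 and 5.995 in the cultures, 0.35 in esophagus, 0.94 in lung, -2.04 in adult stomach, 2.06 in intestine and -4.26 in E9.5 stomach. Adgre1, which encodes the macrophage marker F4/80, read 4.68 and 4.27 against 1.44, 1.17, 0.74, 0.93 and -6.92, although its other probe gave a gap of 0.16. The endotoxin receptor gene Cd14, the scavenger receptor gene Msr1 and the lectin genes Clec4d and Clec4n completed the calls, and Clec4e, from the same cluster on chromosome 6, was culture-only without being listed. With a different background correction (normexp) Msr1 and Clec4n fell short, leaving 4.

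Of the 17 macrophage genes not called, 5 lay above every tissue by less than the threshold, with Trem2 (gap 1.21) and Aif1 (1.20) the closest to it, and 12 did not. Lyz2, the macrophage lysozyme, read 7.98 and 7.67 in the cultures and 8.81 in lung. Csf1r, the receptor on which macrophages depend, read 2.24 and 1.55 in the cultures and between 0.74 and 2.27 in the adult organs. Mrc1 and Cd163, scavenger receptors of resident macrophages, read -0.55 and -0.96 and -2.05 and -1.68 in the cultures, with the highest tissues at 1.14 (lung) and 0.65 (intestine). Of the MHC genes none was called, and H2-Aa, a class II chain of antigen-presenting cells, read -7.26 in the cultures at day 42, below background, and -6.32 at day 46, against 2.07 to 4.16 in the adult organs. The E9.5 stomach array was at or below -1.96 for all 23 macrophage genes.

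Secreted mediators of inflammation and acute-phase proteins outside the lists also appeared among the culture-only genes, as seen after the calls were made. Serpina3n, an acute-phase protease inhibitor, read 5.72 and 3.98 against -1.85 in esophagus, -1.55 in lung, -3.76 in adult stomach, -3.74 in intestine and -8.42 in E9.5 stomach, a gap of 5.53. Its neighbours on chromosome 12, Serpina3m and Serpina3k, and the related Serpina3c were culture-only too, and all 4 were lower at day 46 than at day 42 by 1.04 to 2.05. Members of this family are close copies, so their probes may share signal, and Serpina3c lost the call with normexp. Saa3 and Saa1, the serum amyloid A genes that lie close together on chromosome 7, read 7.06 and 6.22 and 5.03 and 4.54, with intestine nearest at 2.08 and 1.90. The second Saa1 probe gave the opposite result, a gap of -4.65, and the mean over probes ended the Saa1 call. The cytokines Il6 and Tnf were low in the cultures (-0.87 and -1.75, and -1.25 and -0.91), but the tissues were below background or at most -3.80. Both lost the call with normexp, and Il6 also in the authors' table. The chemokine Ccl2 read 3.08 and 3.61 with esophagus nearest at 0.67.

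Genes of amino acid shortage and endoplasmic reticulum stress gave 3 calls of 22. Fgf21, a hormone made under nutrient stress, read -0.30 and 0.25 in the cultures and was below background in all 5 tissues, a difference of at least 29.5-fold, and the authors' own scaled table did not return the call. Ddit4, an inhibitor of growth signalling that low oxygen also induces, read 6.86 and 6.22 with all tissues between 1.68 and 2.94. Stc2 passed narrowly at 2.03. Atf4, the factor that drives this response, had a gap of -0.52, and its targets Asns and Psat1 were highest in adult stomach and E9.5 stomach.

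Cardiac muscle genes gave 2 calls of 25. Nppa, the atrial natriuretic peptide, read 4.75 and 3.53 in the cultures against -2.89 in esophagus, -0.48 in lung, -3.34 in adult stomach, -3.08 in intestine and -3.84 in E9.5 stomach, and its second probe had a gap of 4.42. Ankrd1, a stress-induced nuclear protein of heart and other muscle, read 4.76 and 4.54 with the nearest value, 1.86, in lung. Of the 25, 6 were above every tissue in both cultures, the 2 calls included. Heart sarcomere genes also gave signal in the cultures but were not called. Tnnt2 read 5.59 and 5.12 with lung at 3.99, and Myh6 4.58 and 3.40 with lung at 3.17. Without the esophagus array the list gave 5 calls, with Myl2, Myom2 and Nppb added.

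Mesothelial genes gave 2 calls of 13, Msln (6.77 and 6.51, nearest 4.11 in lung) and Calb2 (-0.53 and -0.09, nearest -3.36 in intestine). Of the 13, 3 lay above every tissue, and the median gap was -1.69, lower than the -1.37 over all genes. Mslnl, near Msln on chromosome 17 and on no list, was culture-only as well. Calb2 and Mslnl lost the call with normexp. Mesothelium is the outer lining of gut and lung. Wt1, its regulator, had a gap of 1.00, and Lrrn4 and Upk3b were lower in the cultures than in adult lung and intestine. Among pluripotency genes 1 of 10 was called, the Nodal inhibitor Lefty1 (0.36 and 0.48, nearest -2.46 in intestine). Pou5f1 (Oct4) at -7.81 and -6.08 and Nanog at -6.91 and -6.70 were low on both culture arrays.

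**Figure D3:**
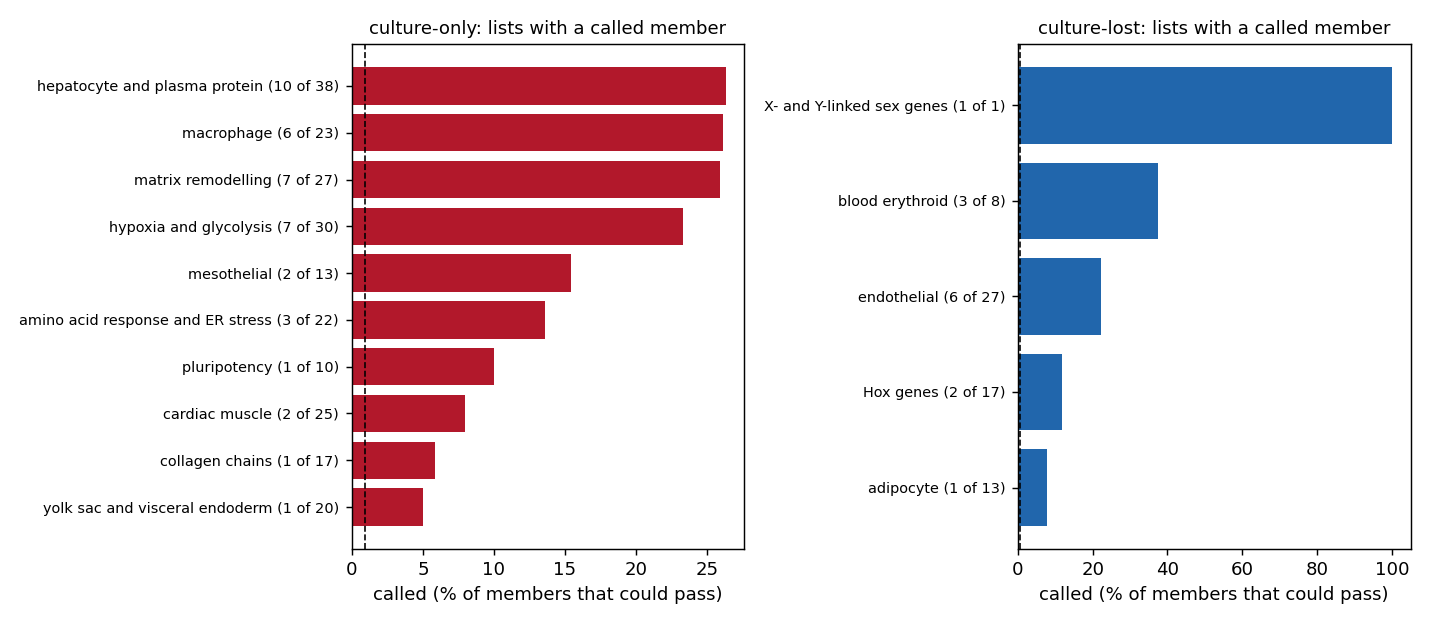
Share of list members called, among members that could pass, for the 10 lists with a culture-only gene (left) and the 5 with a culture-lost gene (right), on different axes, with dashed lines at 0.953% and 0.516%, the shares over all genes. The bars rest on few genes, such as 10 of 38 for plasma proteins, and the full bar on the right is Xist alone.

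Outside the lists, 86 of the 126 culture-only genes remained. Among them were Uts2, the vasoactive peptide urotensin 2 (0.41 and 0.53, at least 48.2-fold above the tissues), and Dio3, which inactivates thyroid hormone (2.83 and 2.66, with esophagus nearest at -2.70). The eye lens protein gene Cryaa read 3.21 and 1.77 with esophagus nearest at -3.19, and its second probe gave a gap of 4.06. Vax2, a homeobox gene of the developing eye, read -0.12 and -0.56 and was below background in all adult organs, and the tissues were at least 24.6-fold lower. Cdkn2a, a locus of cell-cycle inhibitors, read -0.70 and 0.24 with lung nearest at -4.57. Onecut1, a transcription factor of liver and pancreas, read 2.07 and 2.19 with intestine at -0.32 and E9.5 stomach at -0.42. Cldn2, a pore-forming tight junction protein, read 3.31 and 0.50 against -3.78 in intestine.

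The levels at day 42 and day 46 were within 2-fold for 104 of 126 (82.5%), against 84.3% of all genes that could pass. At day 46, 17 were at least 2-fold lower and 5 at least 2-fold higher. The widest drop was that of the neutrophil-attracting chemokine Cxcl5, which read 1.75 at day 42 and fell by 4.56 to -2.81, and which lost the call with normexp. Mmp7, Cldn2 and Itih3 dropped by 2.89, 2.81 and 2.43, and the prolactin-family gene Prl2c5 was higher by 2.61.

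Each tissue set the culture-only gap for some genes. Lung was nearest for 37 genes, intestine for 34, esophagus for 24, E9.5 stomach for 18 and adult stomach for 13. Lung was thus nearest for 29.4% of the culture-only genes and the highest tissue for 16.5% of all genes that could pass, whereas E9.5 stomach was nearest for 14.3% and the highest for 34.7%. In 13 of the 37 genes, all of them bounds, the high floor of the lung array set the gap. The part of that floor in the shares was not tested further. Some called genes lie near each other in the genome: 29 culture-only genes fell into 12 groups with at most 3 protein-coding genes between members, and 11 culture-lost genes into 5 groups. The same count was not made over all genes that could pass, so whether these numbers are high cannot be told. Several groups hold members of a single gene family, such as the Serpina3, Clec4 and Gimap genes.

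Among culture-lost genes, red blood cell genes had the widest gap and endothelial genes the most calls. Hba-a1, an alpha-globin gene with a near-identical copy that its probe may also read, stood at -4.90 at day 42 and -4.49 at day 46, against 8.44 in esophagus, 8.79 in lung, 5.09 in adult stomach, 7.35 in intestine and 5.15 in E9.5 stomach. The lowest tissue, adult stomach, stood 767-fold above the higher culture. Alas2, the first enzyme of heme synthesis in red cells, read -3.88 and -3.21 against -0.01 to 5.03, and the anion exchanger Slc4a1 (band 3) read -5.35 and -4.19 against -1.75 to 1.60. These 3 were the calls among 8 erythroid genes above background in every tissue. Of the 8, 4 lay below every tissue, and the median gap was -0.01 against -1.25 over all genes. The embryonic globin gene Hbb-y was not called. It read -5.29 and -3.53 in the cultures, 6.43 in E9.5 stomach, -3.59 in adult stomach and -1.20 at most in an adult organ. With normexp Slc4a1 fell short of the threshold.

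Endothelial genes gave 6 calls of 27, with 17 of the 27 below every tissue and a median gap of 0.88 against -1.25 over all genes. Kdr, the main receptor for VEGF, read -4.80 and -3.53 in the cultures and 1.23 in esophagus, 4.71 in lung, 0.96 in adult stomach, -0.43 in intestine and 2.91 in E9.5 stomach. Pecam1 (CD31), the junction protein that defines endothelium, read -6.40, below background, and -5.38, against 0.39, 2.67, -1.13, -2.64 and -1.40. Vwf, the clotting factor stored in endothelial cells, read -2.74 and -3.21 with the lowest tissue at -0.19, and its second probe gave a gap of 2.66. Icam2, Mmrn2 and Robo4 were called with gaps of 2.30, 2.16 and 2.08.

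The lowest tissue was the intestine for all 6 called endothelial genes, and it limited most of the rest. Without the intestine array 14 of the list were culture-lost, the additions being Cdh5, Cldn5, Emcn, Plvap, Ptprb, Sox18, Tek and Tie1. With normexp 2 of the 6 remained, Kdr and Icam2, with median centring 4, without Icam2 and Robo4, and with quantile normalization 5, without Robo4. Some members of the list were well measured in the cultures. Egfl7, a protein secreted by endothelium, read 2.35 and 1.25 with intestine at -0.41, and the VEGF receptor Flt1 read 0.13 and 0.58 with intestine at -1.03. Cd34, which fibroblasts also carry, read 2.76 and 3.37, just below the lowest tissue at 3.67 (intestine). Beyond the list, the GTPase genes Gimap1, Gimap5 and Gimap6, a cluster on chromosome 6 known from lymphocytes and endothelium, were culture-lost. Gimap5 lost the call with normexp. Gimap6 read -4.98 and -4.48 against -1.09 to 2.14.

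**Figure D4:**
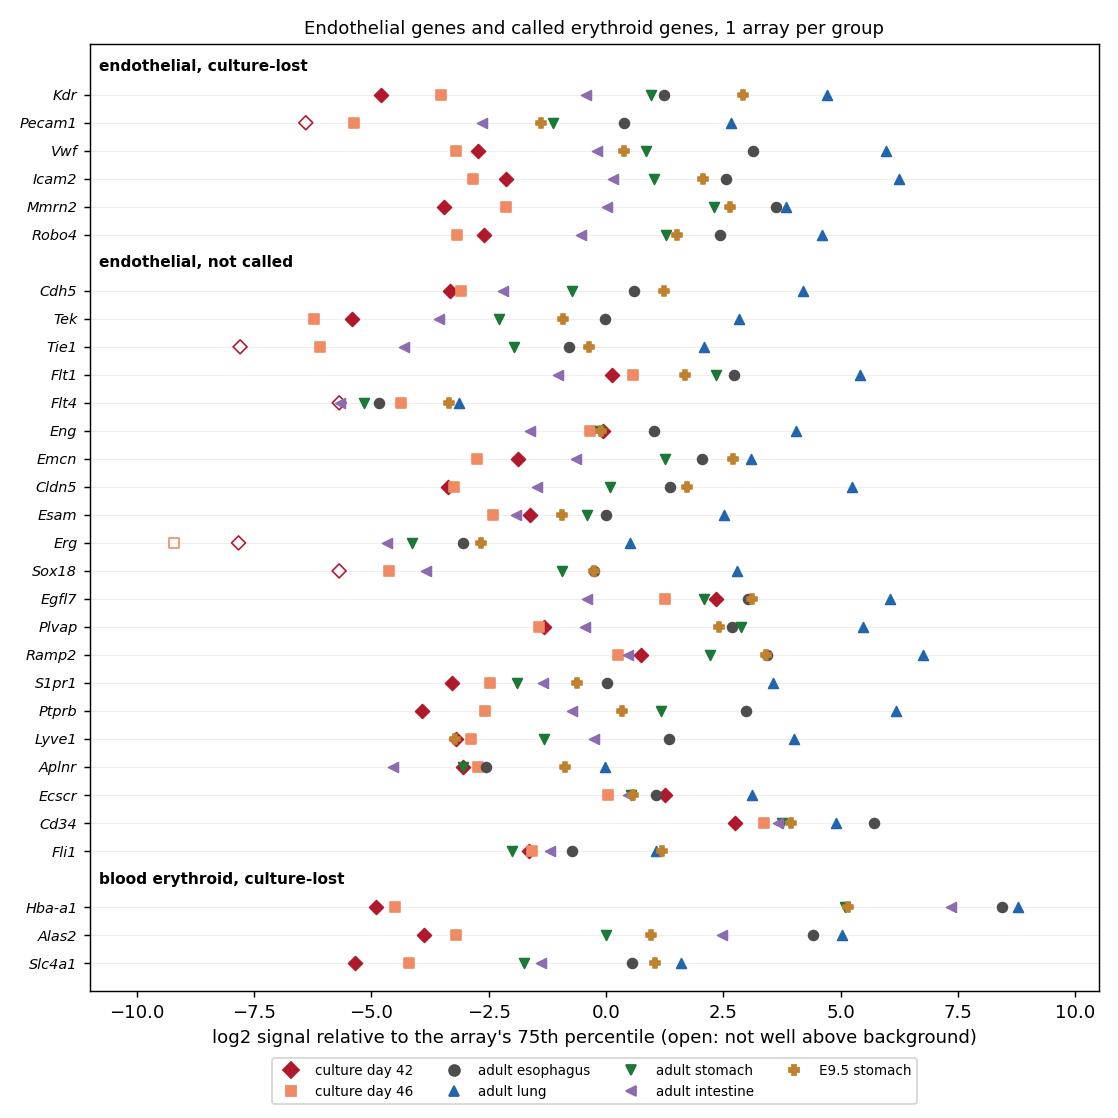
Level of the 27 endothelial genes above background in all tissues and of the 3 called erythroid genes on the 7 arrays, in log2 units relative to the array's 75th percentile, 1 point per array, open where not well above background. The cultures lie to the left of every tissue in the called lines, as for Kdr (-4.80 and -3.53 against -0.43 or higher), and lung lies farthest right in all 6 called endothelial genes.

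Xist, the RNA that silences 1 X chromosome in female cells, was below background in both cultures (-6.47 and -9.39) and read between -1.02 and 1.13 in the 5 tissues, at least 23.4-fold apart. The Y-linked genes ran the other way in the adult organs. Ddx3y read -1.64 and -1.83 in the cultures and -0.57 in E9.5 stomach, and was below background in esophagus, lung, stomach and intestine. Eif2s3y read -0.56 and -0.26 in the cultures, -0.95 in E9.5 stomach and -7.13 or lower in the adult organs. E9.5 stomach thus carried both Xist and Y-linked signal. The cultures had Y-linked signal without Xist above background, and the adult organs had the reverse. Sex of the cells and culture against adult organ can therefore not be told apart here.

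Hox genes, which record position along the body axis, gave 2 calls of 17. Hoxa5 read -5.41 and -6.13 in the cultures, and -1.73 in esophagus, 0.39 in lung, -1.79 in adult stomach, -1.07 in intestine and 0.37 in E9.5 stomach, a gap of 3.62. Hoxa2 read -7.19, below background, and -5.42, against -2.58 to 0.71. Hoxa4, Hoxa7 and Hoxb6 lay just outside the threshold with gaps of 1.96, 1.87 and 1.69. More posterior members went the other way in part: Hoxa10 read -1.97 and -1.59 in the cultures with all tissues at -3.16 or lower, a gap of 1.20, and Hoxc10 had one of 0.92. Without the day 46 array or without the esophagus array the list gave 4 culture-lost calls.

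Car3, a carbonic anhydrase of fat and muscle, was culture-lost at -5.32 and -6.04 against -1.03 to 7.45, the call of 1 of 13 fat cell genes. Without the E9.5 stomach array Cd36, Cfd and Cidec were added, making 4. Fabp4, a fatty acid carrier, read 4.85 and 3.79 in the cultures. Tbx1, a regulator of the pharynx and its arches, read -5.17 and -6.75 against 4.79 in esophagus, 1.83 in lung, -2.40 in adult stomach, -2.64 in intestine and 2.25 in E9.5 stomach, and lost the call with quantile normalization and with normexp. Npnt, a matrix ligand of integrins, had a gap of 2.60, but its other probes gave 1.30 and 1.16 and the mean over probes ended the call. Myb, a regulator of blood progenitors and crypt cells, was called at 2.44 as a bound, with 2.998 and 1.39 from its other probes, and lost the call with median centring and with normexp.

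Some culture-lost genes are not known as markers of a cell type. Fam13c read -4.71 and -5.19 in the cultures and between 0.23 and 1.40 in the tissues. Thumpd1, an RNA-binding protein gene, was below background in both cultures at -7.88 and read 0.00 to 2.60 in the tissues, at least 47.5-fold higher. Rn28s1, the 28S ribosomal RNA, read 1.15 and 0.13 against 5.18 to 7.68. The single probe named for beta-actin (Actb) read -1.26 and -0.26 against 2.52 to 3.69, and Amer3 read -5.44 and -5.29 against -2.38 to -2.07. The histone genes H2ac4, H4c1 and H4c14 were lower in the cultures with gaps of 3.45, 2.002 and 2.012. H4c1 and H4c14 lost the call with median centring, quantile normalization and normexp, and H4c1 also in the authors' table. Amer3 lost it with normexp. Slide, scan and software version differed between the cultures and the tissues and cannot be told apart from culture against tissue here. The tissue range was under 2 log2 units for 21 of 63 culture-lost genes (33.3%), against 46.2% of all genes that could pass.

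Other probes of the same gene give a technical check. For 31 culture-only genes there were 43 further probes, of which 22 (51.2%) met the same threshold and 32 (74.4%) lay above every tissue. In 15 of those genes every probe was called. For 18 culture-lost genes there were 24 further probes, of which 3 (12.5%) met the threshold, those of Myb, Ntn1 and Vwf. Another count, of probes that passed the background filter and lay below every tissue, gave 10 (41.7%). The second probe of Fam13c gave -2.26, those of Fbxo2 -4.13 and -4.05, and the 4 of Trim6 between -4.65 and -2.33, so these calls rested on a single probe and ended with the mean over probes. Ntn1, called by both its probes, and Trim6 also lost the call with median centring, quantile normalization and normexp, and Fbxo2 with quantile normalization. The brightest probe stood for each gene, and dimmer probes can fall near background. The gap's standard deviation between probes of one gene was 0.86 log2 units over 4446 genes in the first direction and 0.84 over 4109 in the second. The remaining 95 culture-only and 45 culture-lost genes had 1 probe.

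**Figure D5:**
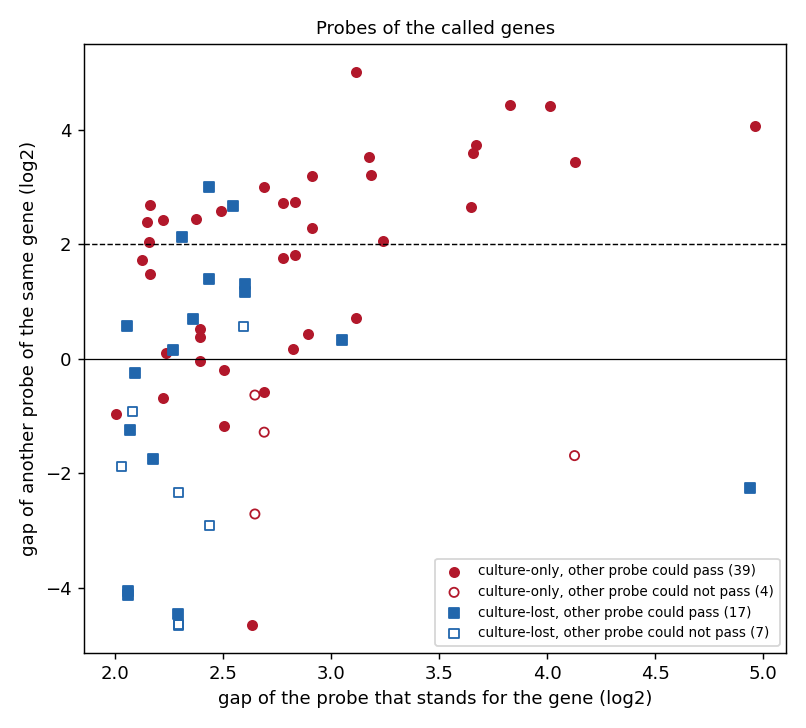
Gap of each further probe (vertical) against that of the probe standing for the gene (horizontal), in log2 units, for culture-only genes (circles) and culture-lost genes (squares), open where the probe missed the background filter, with a dashed line at the 4-fold threshold. Most circles lie above 0 and 22 of 43 above the dashed line, whereas squares lie on both sides of 0 and 3 of 24 above the dashed line.

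Several lists gave no call in either direction. None of the 18 smooth muscle, 22 pan-epithelial, 23 cell cycle or 25 respiratory chain genes measured was culture-only or culture-lost. Acta2, the smooth muscle actin, read 4.16 and 4.66 in the cultures, 2.69 in E9.5 stomach and 4.83 to 8.08 in the adult organs. The epithelial keratins Krt8 and Krt18 were high in the cultures, Krt8 at 7.30 and 7.33 with adult stomach and intestine above it at 8.10 and 8.99. Top2a, a topoisomerase of dividing cells, was highest in E9.5 stomach at 3.56, with the cultures at -2.50 and -3.95. Anxa10, a gastric annexin, read 2.54 and 5.601 in the cultures, 7.19 in adult stomach and -6.18 or lower elsewhere. Dmbt1, a mucosal scavenger protein, came closest to a call among the gastric genes at 1.57, with 6.68 and 5.21 in the cultures and 3.64 in intestine.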

How the data were processed

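RNA of 7 samples was measured on 7 one-colour Agilent arrays, 1 per sample. Per the file headers, the deposited scanner output gives a background-corrected intensity for every spot (gProcessedSignal) with flags, from Feature Extraction 10.7.3.1 (cultures) or 10.5.1.1 (tissues), and the submitters' processing notes name version 10.5. The authors also deposited a log2 table per sample, shifted to the 75th percentile, with a correlation of at least 0.999 to the values used here.

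Control and outlier spots (40 to 728 per array) were dropped, log2 intensity was averaged per probe, and each array's 75th percentile was subtracted. Of 41174 probes, 16742 stayed unnamed, and a RefSeq table (GRCm38.p6) served for the names of the others. The probe with the highest mean stood for a gene, and 192 genes without a value on every array were left out. An array on which a gene was not well above background took the higher of its lowest reliable signal and the gene's own signal, so that gap is a bound ("at least"). A probe counted as above background where at least 0.5 of its spots were so marked. The number of arrays limits the precision, and repeat spots of 245 probes had a median standard deviation of 0.06 to 0.10.

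Members, lists, thresholds and tests were chosen with earlier results of these data known. The 37 lists hold 825 genes, 768 measured. Named genes were, in each direction, the 15 with the largest gap among those above background on every array, the 8 largest bounds, up to 6 called genes per list, the 2 nearest the threshold on each side, tissue markers, and 6 listed genes not called with the largest difference of means. Genes named beyond this rule were chosen after their values were seen. The values of 1 gene that the rule names are not reported here. The gap rule was run on simulated data in which the seeded changes lay beyond the threshold and the noise was small. That run checks the code and does not measure errors in real data. The settings varied were the scaling (array median, quantiles or the authors' table), normexp (limma 3.58.1 in R 4.3.3, offset 50) for the background, no background filter, only genes above background on all arrays, the mean over probes, 2-fold and 8-fold thresholds, and leaving out each array. Promoter motifs were searched with Python 3.11.15 on both strands. A GATA motif, searched as AGATAA, was found in 1 of 2 promoters of called erythroid genes and in 9.99% of all. An ETS motif, searched as ACAGGAAG, was found in 0 of 2 promoters of called endothelial genes and in 2.9% of all.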

Additional observations from a re-analysis of the deposited data

Results flagged for a closer look

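Signal outside the comparison came from probes without a gene name. By the same rule, 53 unnamed probes were above every tissue in both cultures by at least 4-fold, which is 0.672% of the 7886 above background in both cultures, with a largest gap of 6.94. Another 54 unnamed probes were below every tissue, 0.769% of the 7018 above background in all tissues, with a largest gap of 7.91. The named genes gave 0.953% and 0.516%.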

How the results depend on the processing

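The count of culture-only genes was 126 with the settings used, 66 among genes above background on all 7 arrays, 380 at a 2-fold and 56 at an 8-fold threshold, and 162 to 205 when 1 array was left out, the highest without day 46. Culture-lost genes numbered 63, but 41 with quantile normalization, 27 with normexp, 284 at 2-fold and 15 at 8-fold, and 71 to 156 with 1 array left out (102 without intestine, 119 without day 46, a value between these without day 42, and 156 without E9.5 stomach). Fewer arrays can only add genes. Against 126 and 63, quantile normalization gave 135 and 41 and median centring 143 and 44, which moves the culture-only share of calls from 66.7% to 76.7% and 76.5%, and normexp, with 102 and 27, to 79.1%. Median centring shifted the median difference of all genes by 0.18 and normexp by -0.34. The authors' table gave 127 and 61. With the settings used and all 6 other scalings, corrections, filters on background and probe rules (the stricter filter aside), 79 culture-only and 19 culture-lost genes were called each time. Normexp shared 96 of the 126 and 25 of the 63, and the cause of its lower counts was not tested. The gaps of the 46 and 29 called genes picked by size of gap, bound or list did not change sign under any alternative in which the gene could pass. These genes had been chosen for wide gaps in the same data, so a change of sign was unlikely from the start. Of their gaps under the alternatives, 53 of 624 and 41 of 396 moved by more than the standard deviation between probes of a gene. Leaving out an array can only widen a gap, so those runs could not change a sign. Genes named beyond that rule, such as Saa1 and Fbxo2, whose probes disagreed, were not part of this check. Signals near background limit what can be compared: without the day 42 array 15275 genes, not 13220, could be culture-only, and without the lung array 12815, not 12203, could be culture-lost. No paired analysis was possible because each group has 1 sample.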

Other observations

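Among listed genes that were not called, some were far higher in the cultures than in most tissues and were held back by 1 organ. Lcn2, an iron-scavenging protein of inflamed epithelia, read 3.89 and 2.27 in the cultures and 1.38 in lung, with the other tissues at -3.80 or lower. Sftpd, a surfactant lectin, read 4.11 and 2.66 in the cultures, above all tissues but lung (5.32). In the other direction, the smooth muscle filament gene Synm read -3.37 and -2.32 in the cultures and 3.07 to 4.59 in the adult organs, with E9.5 stomach at -1.53.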
